A study of Mus musculus with 9 samples.

Results

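Activator protein 1 (AP-1) and related basic leucine zipper (bZIP) factors were followed across all libraries of a mouse lung transplantation study. The 10 genes were taken by symbol from the deposited gene tables and are the Fos family (Fos, Fosb, Fosl1 and Fosl2), the Jun family (Jun, Junb and Jund) and the partner genes Atf3, Maff and Batf. They are 10 of 23944 genes in the tables, and all 10 were among the 15834 genes with enough reads to be tested. RNA of whole left lungs of adult wild-type mice was sequenced in 9 libraries, 3 in each of 3 groups. Naive lungs came from C57BL/6 mice and served as controls. Cold-ischemia grafts were left lungs of C57BL/6 donors that spent 24 h in cold storage (0 °C) and then 2 h under reperfusion in Balb/C recipients. Shock grafts had the same storage, transplantation and reperfusion, and their donors had first spent 4 h in hypovolemic shock at a mean arterial pressure of 15 ± 5 mmHg and then 20 h in recovery. Both graft groups therefore share donor strain, recipient strain, storage and reperfusion, and a graft can hold recipient blood cells as well as donor lung cells.

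Proteins of the Fos and Jun families pair through a leucine zipper, and the pair binds a short DNA element known as the TPA response element (TRE) or the related cyclic AMP response element (CRE). Fos proteins pair with Jun proteins and not with each other, whereas Jun proteins can also pair among themselves. Many of these genes are immediate-early genes, which are switched on within minutes by growth factors, stress or cytokines without new protein synthesis. In lung, AP-1 is known for roles in inflammation, epithelial repair and fibrosis.

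Some facts about the libraries bear on all values given here. For 2 graft libraries, replicate 2 of the cold-ischemia group and replicate 3 of the shock group, the sample titles and the deposited tables name opposite groups, so comparisons between the graft groups are given both ways and groups are otherwise those of the titles. The labels of the naive libraries cite sample records of another series, so any difference in handling between series and the difference between naive lungs and grafts cannot be told apart. Total counts ran from 18913487 to 34986276 per library, and the labels number the lungs without naming animals, so p-values measure the spread between these samples, which may be technical. Lung identity was present in every library, with 6 alveolar type 2 markers summing to 21018 to 23376 CPM in naive lungs and 17634 to 24699 CPM in grafts, where CPM is the read count scaled to a common library size by TMM. In RNA of whole lung, fewer cells of a type and less RNA per cell cannot be told apart.

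The 10 genes are compact. Their median span in the tables was 7784 bases on mm10, from 1840 for Junb (chr8:84976909-84978748, minus strand) to 22419 for Batf (chr12:85686669-85709087, plus strand), beside a median of 23628 bases over 14687 protein-coding genes tested. Jun (chr4:95049034-95052222, minus strand), Junb and Jund (chr8:70697739-70700616, plus strand) have 1 exon each. The other members have up to 5 exons. Fos (chr12:85473890-85477273, plus strand) and Batf lie on the same chromosome.

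Because the members rose together in grafts, the 250 bases before their RefSeq start (GRCm38.p6) are shown for 5 of them. RefSeq windows were held for 9 of the 10 members, all but Fosl1, and Maff has 3 starts, so it had more chances of a match. Capitals mark the CRE core TGACG on either strand (CGTCA on the other), the full CRE TGACGTCA, which holds that core on both strands, and the TATA box TATAAA on the gene's strand. Of the members that carry these letters, Fos, Fosb, Atf3 and Maff are shown, and Junb and Batf are not. Of those that carry none of them, Jun is shown, and Fosl2 and Jund are not. Any link between a match and the size of a member's rise was not tested. Only exact letters were searched, so near matches, such as TGACATCA in Jun's window, are not marked.
Fos (chr12:85473640-85473889, plus strand): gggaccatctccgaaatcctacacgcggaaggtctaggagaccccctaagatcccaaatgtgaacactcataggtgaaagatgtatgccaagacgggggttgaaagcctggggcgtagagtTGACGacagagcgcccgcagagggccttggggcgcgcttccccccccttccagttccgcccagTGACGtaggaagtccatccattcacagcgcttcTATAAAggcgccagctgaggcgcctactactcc
Fosb (chr7:19310046-19310295, minus strand): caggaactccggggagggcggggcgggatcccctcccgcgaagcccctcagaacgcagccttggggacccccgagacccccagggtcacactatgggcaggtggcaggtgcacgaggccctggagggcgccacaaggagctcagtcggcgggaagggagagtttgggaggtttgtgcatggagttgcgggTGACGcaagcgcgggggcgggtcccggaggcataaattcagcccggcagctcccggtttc
Atf3 (chr1:191183334-191183583, minus strand): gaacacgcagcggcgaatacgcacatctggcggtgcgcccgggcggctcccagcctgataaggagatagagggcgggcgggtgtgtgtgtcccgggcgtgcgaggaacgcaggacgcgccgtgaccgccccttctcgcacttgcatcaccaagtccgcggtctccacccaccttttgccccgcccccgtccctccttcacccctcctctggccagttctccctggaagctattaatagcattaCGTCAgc
Maff, second start (chr15:79347270-79347519, plus strand): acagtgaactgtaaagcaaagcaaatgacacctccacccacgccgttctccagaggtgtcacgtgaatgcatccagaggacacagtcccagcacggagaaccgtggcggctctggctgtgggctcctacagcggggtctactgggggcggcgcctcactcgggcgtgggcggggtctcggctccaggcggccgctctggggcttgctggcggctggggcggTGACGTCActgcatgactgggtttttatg
Jun (chr4:95052223-95052472, minus strand): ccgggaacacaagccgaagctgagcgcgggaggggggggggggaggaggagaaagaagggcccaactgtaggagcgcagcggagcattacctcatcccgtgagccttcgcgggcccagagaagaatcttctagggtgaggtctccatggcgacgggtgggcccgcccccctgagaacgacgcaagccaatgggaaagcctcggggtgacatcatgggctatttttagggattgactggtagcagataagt
The CRE core stood in windows of 6 members (Fos, Fosb, Junb, Atf3, Maff and Batf) and in 17.8% of 32851 windows of the same length over all genes. The first count is per gene, over all its starts, and the second per window. GC content of the members' windows ran from 46.4% (Batf) to 68.8% (Fosb), beside a median of 52.4% over all windows. No allowance was made for it, though the core itself holds C next to G. The full CRE stood in Maff alone among the members and in 1.55% of all windows. Fos was the only member with the TATA box, at 33 to 28 bases before the start, a motif held by 7.59% of all windows. The TRE, searched as TGANTCA on both strands, stood in no member's window and in 6.75% of all windows. The CArG box, the site of serum response factor, also stood in none of these windows, and in 1.47% of all windows. Sites further upstream than 250 bases, or after the start, were not searched, so absence here does not mean that a gene lacks the site. These matches describe letters in short windows and not bound sites.

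**Figure D1:**
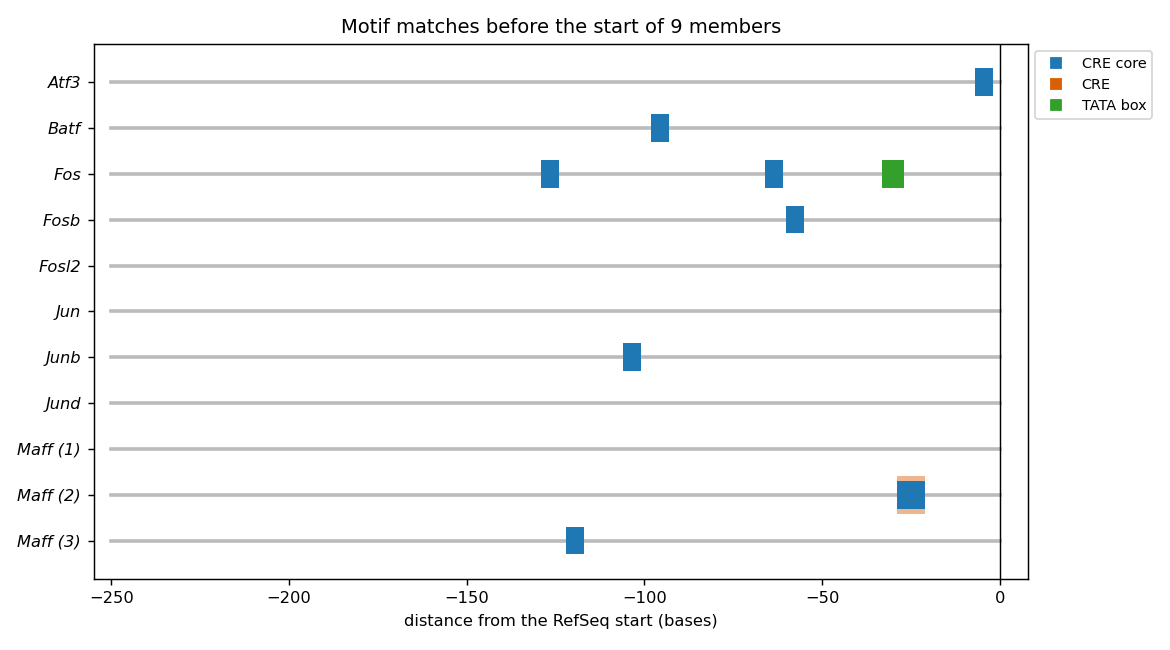
Position of motif matches in the 250 bases before each RefSeq start, with 1 line per start, distance from the start in bases on the x axis and the 3 starts of Maff numbered. Fos carries 2 CRE cores and a TATA box, and the full CRE of Maff lies 29 to 22 bases before its second start.

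In grafts, all 10 genes stood above naive lungs. With all 6 grafts set against the 3 naive lungs, 10 of 10 members were called higher (edgeR quasi-likelihood test, Benjamini-Hochberg adjusted p under 0.05), where 22.1% of all genes tested were called higher and 19.7% lower. The median log2 fold change of the members was 3.44, against -0.05 over all genes tested. The members and the lists counted below were chosen with earlier results of these data known, so such counts only describe them. In every member, each graft library exceeded each naive library on the CPM scale, which was so for 20.9% of all genes tested. The size of the change differed widely between members, from a log2 fold change of 6.90 for Fosb to 0.46 for Jun.

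**Figure D2:**
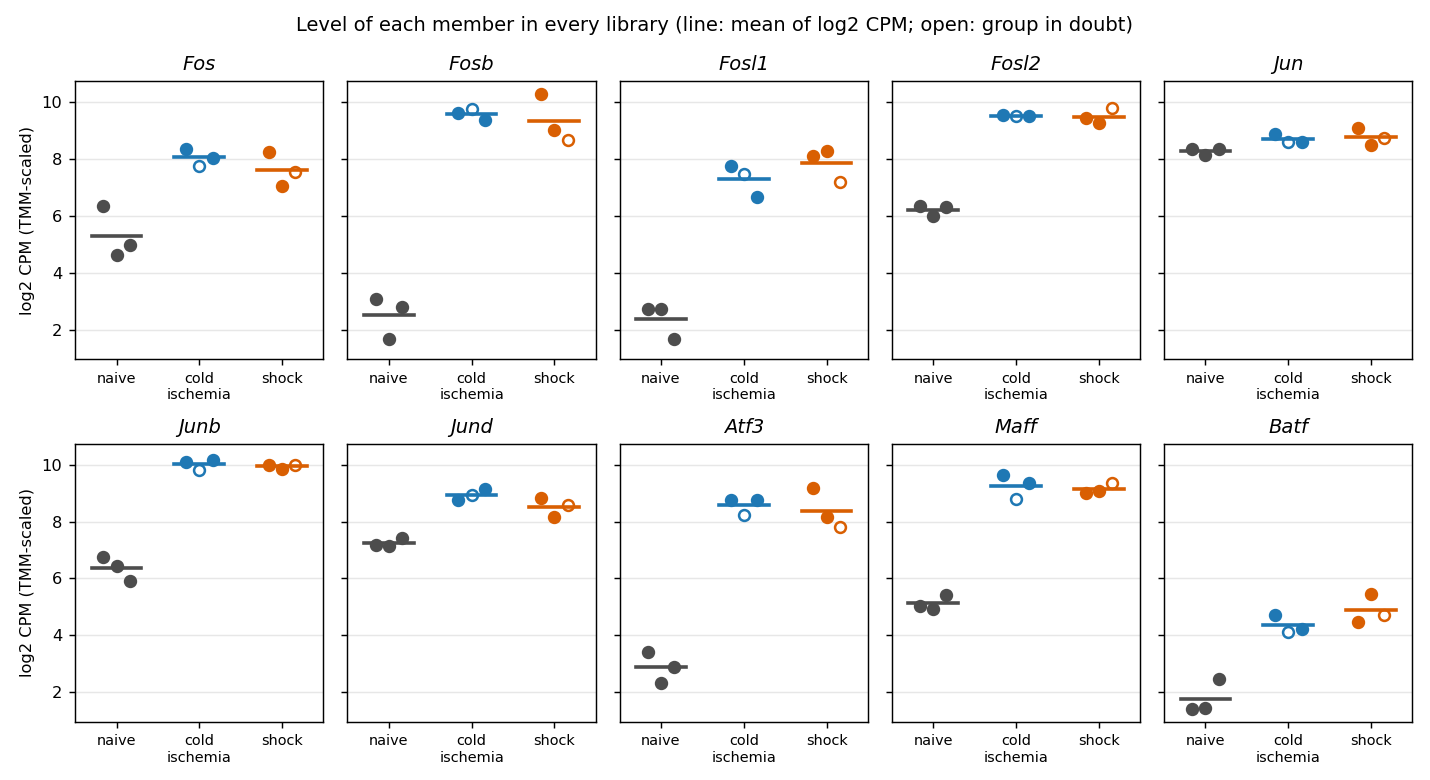
Level of each member in every library as log2 CPM, with points for single libraries, lines for the mean of each group of 3, and open points for the 2 grafts whose title and deposited table differ. Fosb, Atf3 and Fosl1 are furthest above naive lungs in grafts, with log2 fold changes of 6.90, 5.59 and 5.20, and Jun least, with 0.46.

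Within the Fos family, Fosb had the largest fold change. Its protein pairs with Jun proteins, and its transcript is also known in a shorter spliced form that gene counts cannot separate. Fosb stood at 8.44, 3.21 and 6.90 CPM in naive lungs, at 784, 860 and 653 CPM in cold-ischemia grafts and at 1250, 513 and 409 CPM in shock grafts. Naive lungs held few Fosb transcripts (71 to 295 reads), and the first shock graft was well above the other 5 grafts. The log2 fold change of grafts over naive lungs was 6.90 ± 0.52 (SE, adjusted p = 5.27e-06), and 36 of the genes tested had a larger one. For shock grafts alone it was 6.86 ± 0.53 and fell to 6.21 without shock replicate 1.

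Fosl1 encodes Fra-1, a Fos protein without the strong activation domain of Fos itself. Its level was 6.58, 6.60 and 3.21 CPM in naive lungs, 214, 178 and 102 CPM in cold-ischemia grafts and 276, 306 and 145 CPM in shock grafts. Replicate 3 was the lowest library of each group, and the 2 graft groups overlapped. Fosl1 rose by 5.20 ± 0.41 on the log2 scale (adjusted p = 6.67e-06).

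Fosl2 encodes Fra-2, the other Fos protein of that kind. It stood at 81.5, 63.1 and 79.9 CPM in naive lungs, at 749, 721 and 732 CPM in cold-ischemia grafts and at 683, 611 and 880 CPM in shock grafts. Its 3 cold-ischemia libraries were almost equal, with an SD of 0.03 on the log2 scale, and 1.16% of genes tested had a smaller SD in that group. Fosl2 rose by 3.28 ± 0.18 (adjusted p = 7.35e-07), with the smallest standard error in the Fos family.

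Fos, the founding immediate-early gene of the family, had the smallest fold change of the 4. Its level was 80.6, 24.4 and 31.2 CPM in naive lungs, 325, 216 and 264 CPM in cold-ischemia grafts and 304, 132 and 184 CPM in shock grafts. Naive lungs themselves varied, since the first exceeded the second 3.31-fold, and the log2 SD of 0.91 among them was larger than that of 98.2% of genes tested (median 0.17). The log2 fold change of grafts over naive lungs was 2.37 ± 0.42 (adjusted p = 0.0011). Without naive replicate 1 it was 3.07, and it was then 3.26 for cold-ischemia grafts (2.56 with all libraries) and 2.88 for shock grafts (2.18 with all libraries).

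Of the Jun family, Junb had the largest fold change. JunB is a weaker activator than c-Jun and can oppose it in some settings. Junb stood at 107.9, 86.2 and 59.6 CPM in naive lungs, at 1082, 898 and 1157 CPM in cold-ischemia grafts and at 1011, 921 and 1023 CPM in shock grafts. All 6 grafts lay close together, with a log2 SD of 0.14 that exceeded that of 9.01% of genes tested. The log2 fold change was 3.58 ± 0.22 (adjusted p = 1.39e-06).

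Jund encodes the Jun protein that is broadly present in resting cells. It stood at 144, 140 and 172 CPM in naive lungs, at 428, 485 and 570 CPM in cold-ischemia grafts and at 449, 288 and 387 CPM in shock grafts. Shock replicate 2 was the lowest graft, still above all naive lungs. Jund rose by 1.50 ± 0.17 (adjusted p = 8.41e-05).

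Jun encodes c-Jun, which Jun N-terminal kinases activate by phosphorylation, a step that RNA does not show. Its level was 323, 280 and 328 CPM in naive lungs, 470, 385 and 386 CPM in cold-ischemia grafts and 543, 354 and 422 CPM in shock grafts. Grafts were slightly higher, and the nearest values, 328 CPM in a naive lung and 354 CPM in a shock graft, were close. On the authors' deposited FPKM (reads scaled to gene length and to the library's total), which carry no TMM scaling, naive lungs at 103 to 120 and grafts at 102 to 153 overlapped. Jun was called with a log2 fold change of 0.46 ± 0.16 (adjusted p = 0.0364). Its call was lost in 6 of 18 alternative settings, namely upper-quartile scaling (0.26, adjusted p = 0.183) and leaving out naive replicate 1, 2 or 3, cold-ischemia replicate 1 or shock replicate 1, and its adjusted p ran from 0.0114 to 0.183 over the 18. The antisense gene Junos overlaps Jun in the tables and held 83 to 243 reads, or 1.01% to 2.15% of Jun's reads, and the labels do not state whether reads kept their strand.

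Among the partners, Atf3 had the largest fold change. ATF3 is a stress-induced factor that represses as a homodimer and can pair with Jun proteins. Atf3 stood at 10.6, 5.02 and 7.49 CPM in naive lungs, at 428, 298 and 428 CPM in cold-ischemia grafts and at 579, 286 and 224 CPM in shock grafts. Shock replicate 1 was the highest library, as for Fosb. The log2 fold change was 5.59 ± 0.42 (adjusted p = 4.87e-06), and 71 genes had a larger one.

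Maff encodes a small Maf protein, which binds DNA but has no activation domain of its own. Its level was 32.4, 30.6 and 43.1 CPM in naive lungs, 786, 441 and 658 CPM in cold-ischemia grafts and 510, 539 and 661 CPM in shock grafts. The lowest graft was cold-ischemia replicate 2, one of the libraries in doubt. Maff rose by 4.08 ± 0.24 (adjusted p = 1.18e-06).

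Batf pairs with Jun proteins, lacks an activation domain and is best known from lymphocytes. Per gene length it was the scarcest member in grafts. Batf stood at 2.66, 2.71 and 5.56 CPM in naive lungs, at 26.6, 17.5 and 18.8 CPM in cold-ischemia grafts and at 21.9, 43.7 and 26.5 CPM in shock grafts. Shock replicate 2 stood above the other grafts. Batf rose by 2.78 ± 0.33 (adjusted p = 0.000101). Of 8 T cell markers 1 (12.5%) was called higher in grafts, beside 22.1% of all genes tested. Their summed level was 48.2 to 57.0 CPM in naive lungs and 50.0 to 80.3 CPM in grafts. Of 5 B cell markers 4 were called lower, beside 19.7% of all genes tested, with sums of 69.6 to 89.9 and 28.8 to 46.1 CPM. The part of lymphocytes in the rise of Batf was not tested.

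Neutrophil markers also rose from naive lungs to grafts. All 10 markers were called higher in grafts, beside 22.1% of all genes tested. Their summed level was 74.3 to 101 CPM in naive lungs, 1089, 1259 and 2085 CPM in cold-ischemia grafts and 2662, 3205 and 1611 CPM in shock grafts. Between shock and cold-ischemia grafts 0 of these markers were called, beside 0% of all genes tested. Their median log2 fold change there was 0.84, and 7 of 10 had an unadjusted p under 0.05 (edgeR). Of the AP-1 members 0 of 10 did, and of all 15834 genes tested 1152. These counts follow the grouping of the titles. By the deposited tables' grouping the marker sums were 2662, 3205 and 1259 CPM in shock and 1089, 2085 and 1611 CPM in cold-ischemia grafts. At an unadjusted p under 0.05 (edgeR) there were then 2 of 10 members and 3075 genes, and the markers were not counted under it. Mesothelial markers moved the other way, with 5 of 5 called lower, beside 19.7% of all genes tested. Their sums were 192 to 257 CPM in naive lungs and 4.17 to 56.4 CPM in grafts, and Bnc1 and Wt1 stood at 0 in at least 1 library. Monocyte and macrophage markers were mixed, with 3 of 9 higher (33.3%) and 2 lower (22.2%), beside 22.1% and 19.7% of all genes tested. Their sums were 6048 to 6852 CPM in naive lungs and 4094 to 7414 CPM in grafts. The part of these cell types in the members' rise was not tested.

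Taken separately, both graft groups differed from naive lungs in the same members but for Jun. These comparisons share the naive libraries, so they are set side by side and are not independent. In cold-ischemia grafts 9 of 10 members were called higher, beside 17.5% of all genes tested (13.1% lower). In shock grafts 10 of 10 were called higher, beside 22.0% of all genes tested (17.9% lower). Jun had a log2 fold change of 0.41 ± 0.18 in cold-ischemia grafts (adjusted p = 0.103) and 0.50 ± 0.18 in shock grafts (adjusted p = 0.0437), and the latter was lost in 11 of 18 alternative settings, with adjusted p from 0.014 to 0.202. Those settings were upper-quartile scaling, no filter on low counts, a fit of the compared libraries alone, and the omission of both libraries in doubt or of naive replicate 1, 2 or 3, cold-ischemia replicate 2 or 3, or shock replicate 1 or 3. The difference between the graft groups in Jun was 0.09 (adjusted p = 0.897). The authors' deposited table, with its own grouping, gives Jun 0.46 in cold-ischemia grafts (adjusted p = 0.00159) and 0.50 in shock grafts (adjusted p = 0.0502).

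The other 9 members kept their calls in both groups under all 18 settings. Fosb had log2 fold changes of 6.94 in cold-ischemia and 6.86 in shock grafts, Atf3 5.63 and 5.55, and Fosl1 4.92 and 5.48. Values for Maff were 4.15 and 4.01, for Junb 3.63 and 3.54, and for Fosl2 3.29 and 3.27. Batf had 2.51 and 3.06, Fos 2.56 and 2.18, and Jund 1.70 and 1.30.

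**Figure D3:**
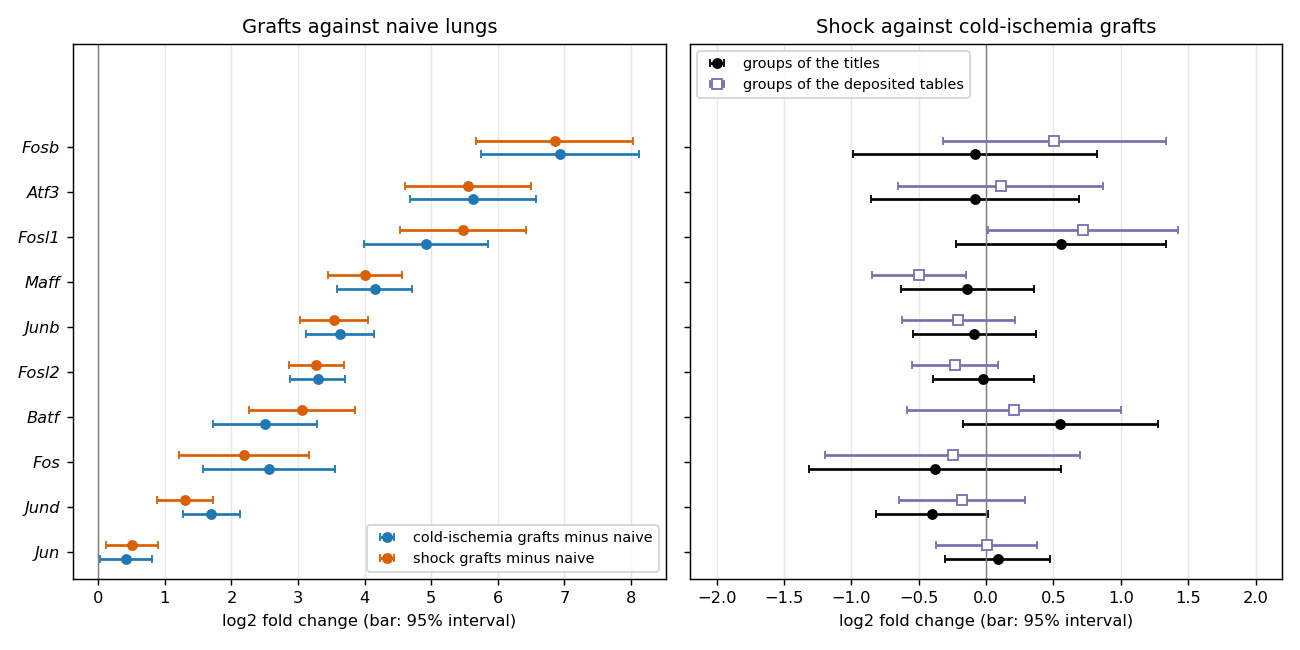
Log2 fold changes of the members with 95% intervals, on the left for each graft group against naive lungs and on the right for shock against cold-ischemia grafts under the grouping of the titles (filled) and of the deposited tables (open). On the left Fosb leads at 6.94 and 6.86 and Jun is last, and on the right the 10 filled points lie between -0.40 and 0.56.

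The graft groups were not told apart in the members, nor in any other gene tested. Between shock and cold-ischemia grafts 0 of 10 members were called, and 0% of all genes tested, so this count is not particular to the members. No member reached an unadjusted p under 0.05, while 1152 of 15834 genes tested did, and DESeq2 called 6 genes and no member. The graft groups overlapped in all 10 members, where 10.4% of all genes tested did not overlap. The largest differences were those of Fosl1, at 0.56 (95% interval -0.22 to 1.33), and Batf, at 0.55 (-0.17 to 1.28), with shock grafts higher. Jund was lower in shock grafts by a log2 fold change of -0.40 (-0.81 to 0.02, unadjusted p = 0.0573, adjusted p = 0.671). Fos had -0.38 with the widest interval, -1.31 to 0.56. For Fosl2, Jun, Junb and Maff the intervals lay within -0.63 and 0.48, and for Fosb and Atf3 within -0.99 and 0.82.

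With the grouping of the deposited tables the values of some members moved. Again 0 members were called, while 124 of 15834 genes tested were (36 higher, 88 lower). At an unadjusted p under 0.05 (edgeR) there were 2 of 10 members, Maff and Fosl1, beside 3075 of the 15834 genes tested. Maff then stood at 510, 539 and 441 CPM in shock grafts and 786, 658 and 661 CPM in cold-ischemia grafts, without overlap, with a log2 fold change of -0.50 (-0.85 to -0.15, unadjusted p = 0.00992, adjusted p = 0.14). Fosl2 (-0.23) and Junb (-0.21) also did not overlap, each lower in shock grafts. These 3 of 10 members stand beside 23.2% of all genes tested that did not overlap under this grouping. Fosl1 was higher in shock grafts at 0.72 (0.02 to 1.42, adjusted p = 0.248), and Fosb turned from -0.08 to 0.51 (-0.32 to 1.33).

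The order of the members by level changed between naive lungs and grafts. Levels of different genes are compared here as deposited FPKM, which are per gene length. In naive lungs Jun led at 113 ± 8.95 FPKM (SD, n = 3), above Jund at 61.3 ± 5.60 without overlap. Junb (53.6 ± 16.4), Fos (25.1 ± 17.4) and Maff (21.2 ± 3.53) followed with overlapping neighbours, then Fosl2 (14.8 ± 1.99) apart from both its neighbours. Atf3 (4.52 ± 1.71), Batf (4.40 ± 1.89), Fosl1 (3.73 ± 1.39) and Fosb (1.91 ± 0.842) were lowest, and each overlapped the next.

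In grafts Junb led at 512 ± 55.4 FPKM (SD, n = 6), above Maff at 288 ± 60.3 FPKM without overlap. Fosb, last in naive lungs, stood next at 184 ± 70.6 FPKM. Atf3 (174 ± 58.2), Jund (140 ± 33.3), Jun (124 ± 17.8), Fosl2 (116 ± 15.3), Fosl1 (110 ± 40.0) and Fos (104 ± 31.6) formed a run in which each overlapped the next. Batf was last at 25.0 ± 8.97 FPKM, below all libraries of Fos.

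The summed FPKM of the members was 271 to 347 in naive lungs and 1523 to 1989 in grafts. Jun made up 34.5% to 39.7% of that sum in naive lungs and 6.03% to 7.70% in grafts. Junb took the largest share in all 6 grafts, at 24.9% to 32.0%, against 12.5% to 20.2% in naive lungs. The Fos family as a whole went from 11.7% to 19.9% in naive lungs to 24.1% to 34.2% in grafts, and the Jun family from 71.6% to 79.2% down to 39.6% to 47.4%. The ratio of Fosb to Fos in FPKM was 0.0588 to 0.125 in naive lungs and 1.25 to 2.31 in grafts, and that of Junb to Jun 0.315 to 0.579 and 3.23 to 5.19. These shares and ratios are within a library and do not depend on how libraries are scaled.

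**Figure D4:**
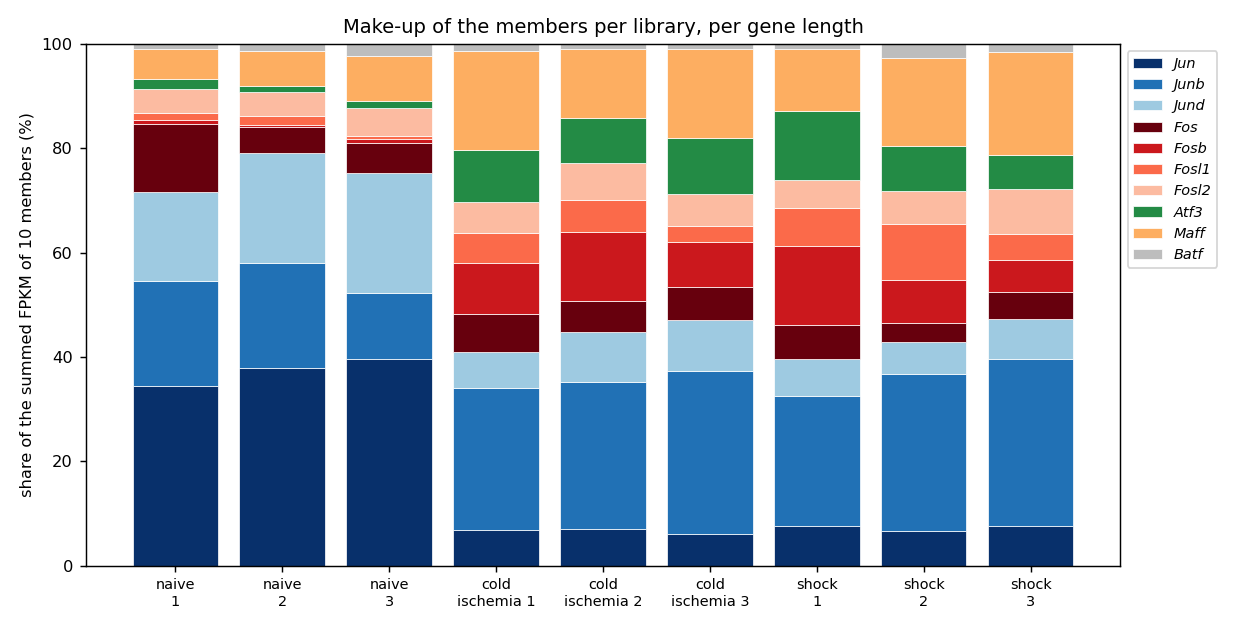
Share of each member in the summed FPKM of the 10 genes, with 1 bar per library and the y axis in percent from 0 to 100. Dark blue, Jun, takes 34.5% to 39.7% in naive lungs and 6.03% to 7.70% in grafts, where Junb takes 24.9% to 32.0%.

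Within the grafts the members did not move as 1 block. Over the 6 grafts, which differ in group and depth and are too few for more than a description, Pearson's r of log2 CPM was 0.84 for Fosb with Atf3, 0.78 for Fos with Atf3, 0.75 for Fos with Jun and 0.78 for Junb with Maff. It was -0.95 for Jund with Batf, the most extreme value of any pair of members, and -0.02 for Fosb with Junb. The pairs named were picked from all pairs of members. By the likeness of log2 CPM over the 9 libraries, which fall into naive lungs and grafts and so share that difference, the nearest of 12268 genes were Nr4a1 (r = 0.985), March7 and Prr24 for Fos. They were Ptgs2 (0.996), Spty2d1 and Arih2 for Fosb, Tnip3 (0.996), Csf1 and Krt18 for Fosl1, and Birc3 (0.996), Cxcl2 and Zc3h12a for Fosl2. For Junb they were Zc3h12a (0.997), Tnfaip3 and Zfp36, for Jund Prkab1 (0.996), Zfp46 and Cytip, and for Jun Mtpap (0.963), N4bp2l2 and Rnpc3. For Atf3 they were Nlrp3 (0.996), Slc25a25 and Arih2, for Maff Btg1 (0.998), Bcl10 and Rab20, and for Batf Ptpn1 (0.997), Rbmxl1 and Strap. Over the 6 grafts alone the nearest to Fos were Clec12a (0.990), Sf1 and Klrb1b.

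Among other bZIP genes, rises outnumbered falls. Of 40 tested of 42 listed, 20 were called higher and 5 lower in grafts against naive lungs, beside 22.1% and 19.7% of all genes tested, and their median log2 fold change was 0.80 beside -0.05 over all genes. By group, 17 were higher and 2 lower in cold-ischemia grafts, beside 17.5% and 13.1% of all genes tested, and 20 and 3 in shock grafts, beside 22.0% and 17.9%. Cebpd, a C/EBP factor of the acute-phase response, went from 89.4 ± 23.9 CPM (SD, n = 3) to 849 ± 160 CPM (n = 6), a log2 fold change of 3.25 ± 0.25 (SE). Cebpb, its relative in inflammation and macrophage genes, rose by 2.43 ± 0.19, the small Maf gene Mafk by 2.19 ± 0.17, and Atf4, the effector of the integrated stress response, by 2.16 ± 0.17. Singled out after their values were seen, the 5 lower genes were Maf (-1.09), Hlf (-1.89), Dbp (-2.37), Tef (-0.72) and Crebzf (-0.48). Hlf, Dbp and Tef are clock-controlled factors, and Dbp spread from 20.5 to 184 CPM among naive lungs and from 2.13 to 45.8 CPM among grafts. Its value was -1.61 without naive replicate 2 (adjusted p = 0.239) and -3.53 without shock replicate 3. Of 18 alternative settings, 11 ended the call of Dbp, 11 that of Tef, 8 that of Crebzf and 1, without naive replicate 2, that of Hlf (-1.56, adjusted p = 0.0577). Leaving out naive replicate 1 ended the calls of Dbp, Tef and Crebzf, and so did leaving out cold-ischemia replicate 1 or 2 or shock replicate 1. Omitting naive replicate 2, cold-ischemia replicate 3 or shock replicate 2 also ended those of Dbp and Tef, and omitting naive replicate 3 or shock replicate 3 that of Crebzf.

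**Figure D5:**
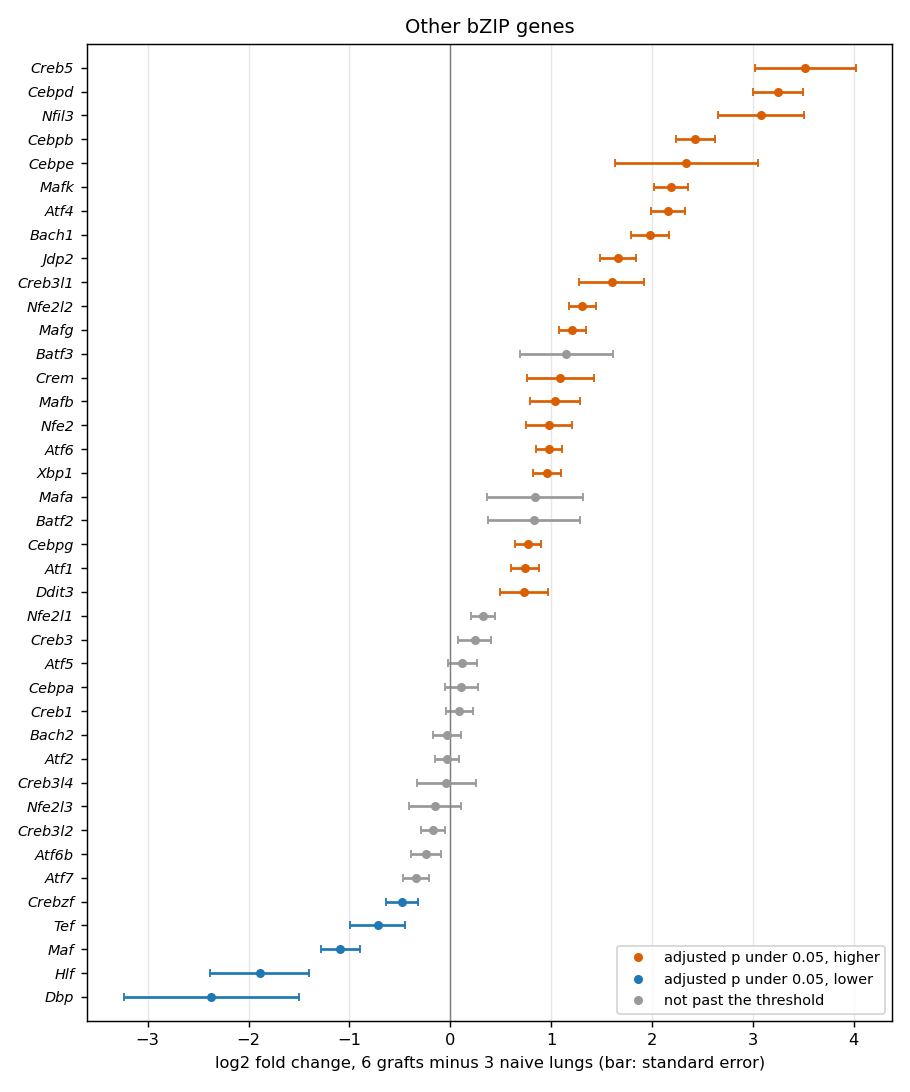
Log2 fold change of 40 other bZIP genes in 6 grafts against 3 naive lungs, with standard errors, ordered by size and coloured by the edgeR call. Of the 40, 20 were called higher and 5 lower, and Dbp at -2.37 has a wide error.

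Genes for kinases and serum response factors that act upstream of AP-1 were also counted. Of 31 tested, 12 (38.7%) were called higher and 7 (22.6%) lower in grafts, beside 22.1% and 19.7% of all genes tested, so the share of lower genes was near that of all genes. Their median log2 fold change was 0.05, beside -0.05 over all genes. Without naive replicate 1 the 19 calls fell to 12. In cold-ischemia grafts 9 were higher and 4 lower (29.0% and 12.9%, beside 17.5% and 13.1% of all genes tested), and without naive replicate 2 these 13 calls fell to 8. In shock grafts 11 were higher and 6 lower (35.5% and 19.4%, beside 22.0% and 17.9%). Map3k8, the kinase Tpl2 that relays inflammatory signals to ERK, rose by 3.80 ± 0.28 (SE), from 5.91 ± 1.72 CPM (SD, n = 3) to 83.2 ± 19.6 CPM (n = 6). Map2k3, an activator of p38, rose by 2.28 ± 0.22. The ternary complex factor genes diverged, as Elk4 rose by 0.95 ± 0.11 and Elk3 fell by 1.43 on the log2 scale, from 126 to 132 CPM in naive lungs to 29.6 to 68.8 CPM in grafts.

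Textbook targets of AP-1, a list chosen with earlier results of these data known, were mostly higher. Of 20 tested of 22 listed, 17 were called higher and 0 lower in grafts, beside 22.1% and 19.7% of all genes tested. Their median log2 fold change was 3.08, beside -0.05 over all genes, and at an unadjusted p under 0.05 the count was also 17. In cold-ischemia grafts 16 were higher and 0 lower, beside 17.5% and 13.1% of all genes tested. In shock grafts 16 were higher, beside 22.0%, and 1, the cyclin gene Ccnd1, lower (-0.72, adjusted p = 0.015), beside 17.9%. Plaur, the urokinase receptor, rose by 4.13 ± 0.19 (SE) and Ptgs2, the inducible cyclooxygenase, by 5.12 ± 0.35. Mt2, a metallothionein, rose by 6.00 ± 0.42, from 17.7 ± 7.50 CPM (SD, n = 3) to 1146 ± 383 CPM (n = 6). Between the graft groups none of the 3 lists had a called gene, and under the grouping of the deposited tables Dbp was lower in shock grafts (-3.49 ± 0.65, adjusted p = 0.0413). These targets are also under other controls, and the part of AP-1 in their level was not tested.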

How the data were processed

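Paired reads of 150 bases came from 9 libraries. The tools named, per the submitters' processing notes, are STAR, STAR-Fusion, HTSeq, edgeR and DESeq2, with mm10 as the build, and neither versions, roles nor a gene annotation are given there. Per the file headers, the authors deposited 3 tables with raw read counts, FPKM, log2 fold changes and p-values. Their normalized signal, as deposited, was each count over a constant of its library, as the values themselves show. Deposited FPKM equalled counts over gene length and library total, so a recomputation gave the same values. The 3 tables were joined by gene identifier, and 9 repeated columns held 0 differing counts. The lowest chi-square between libraries was 15.0 per degree of freedom, so no library was a repeat.

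Counts were tested with edgeR 4.0.16 in R 4.3.3, by the two-sided quasi-likelihood test after TMM scaling and filterByExpr, in 1 fit of 9 libraries with a mean per group. A gene was called at an adjusted p (Benjamini-Hochberg, over 15834 genes) under 0.05. The script was tested on simulated data. DESeq2 1.42.0 was an alternative, with other scalings, filters, groupings and left-out libraries. Correlations used log2 CPM with a prior count of 2. A floor of 3 reads, for counting error only, corresponds to 0.136 CPM in naive replicate 2, the shallowest library. After TMM scaling this floor ran from 0.0759 CPM in naive replicate 3 to 0.149 CPM in shock replicate 2. Promoter windows are RefSeq's for GRCm38.p6.

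The members and lists were chosen with earlier results of these data known. Genes named were the 10 members, the 4 of each list with the smallest p in grafts against naive lungs, list genes called between graft groups, and the 3 genes most like each member. Some genes that this rule names are not reported here. Mmp10, Il2, Nrl and Creb3l3 were on a list but not tested.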

Additional observations from a re-analysis of the deposited data

How the results depend on the processing

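Of the 10 members, 9 kept direction and call against naive lungs in all 18 alternative settings for the pooled, cold-ischemia and shock comparisons, and Jun, covered above, was the exception. Jun was called in cold-ischemia grafts when only the libraries compared entered the fit (0.42, adjusted p = 0.0406). Upper-quartile scaling moved the median log2 fold change of all genes to -0.25 for pooled, -0.22 for cold-ischemia and -0.28 for shock grafts, and the share of called genes that were higher to 34.8%, 39.3% and 36.5%, from 52.8%, 57.1% and 55.1%. Under it Jun in shock grafts was 0.28 (adjusted p = 0.202).

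Between graft groups the count of all genes called was 0, and became 6 with DESeq2, 124 with the grouping of the deposited tables and 39 without the 2 libraries in doubt. With the tables' grouping 1 other bZIP gene and 1 AP-1 target were called. Leaving out 1 library at a time gave 12 to 19 called upstream genes in pooled grafts and 8 to 17 in cold-ischemia grafts. Small differences between graft groups changed sign. Fosb became 0.51 with the tables' grouping and 0.29 without the 2 libraries in doubt, and Atf3 0.11 and 0.015. Leaving out 1 library gave -0.732 to 0.202 for Fosb, -0.183 to 0.090 for Fosl2, -0.092 to 0.221 for Jun, -0.593 to 0.168 for Atf3 and -0.340 to 0.053 for Maff. The cause of these changes was not tested.

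Same-numbered libraries had low or negative correlations of their deviations from group means, from -0.394 to 0.0965. Libraries of different numbers were not compared, so a pairing by replicate number was not excluded. With a replicate block 4296 genes were called in cold-ischemia and 5801 in shock grafts, against 4846 and 6319, and 6111 against 6620 in pooled grafts, and no member's call changed, while Dbp, Tef and Crebzf lost theirs. Jun had 0.45 (adjusted p = 0.0308) in pooled grafts.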
